A study of Mus musculus with 6 samples.

Results

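The epidermal growth factor (EGF) receptor family, its ligands and the receptor inhibitor Lrig1 were examined in colon epithelium of mice labelled as knockouts of Bcl9 and Bcl9l. The 10 genes Egfr, Erbb2, Erbb3, Areg, Ereg, Btc, Hbegf, Tgfa, Egf and Lrig1 were matched by symbol to the platform annotation, taking each probe set (a small group of short probes that reads 1 transcript region) with exactly 1 gene symbol. This gave 22 probe sets for 9 genes, out of 45101 probe sets on the Affymetrix Mouse Genome 430 2.0 array. No probe set carried the name Areg in the annotation used, and Areg is not analysed here.

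Members of the ErbB family are transmembrane receptor tyrosine kinases that work in pairs. Ligands of the EGF family are made as membrane-anchored precursors and are released by cell-surface proteases, after which they bind the receptors on the same or neighbouring cells. In the intestine this signal supports division of crypt cells, and LRIG1, which binds ErbB receptors and restrains them, also marks stem and progenitor cells of the crypt.

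The knockouts carried vil-Cre, which is driven by the promoter of the epithelial gene villin. A deletion made by this Cre would be confined to cells in which that promoter is or was active. The knockouts were labelled -/- for both Bcl9 and Bcl9l, co-activators that bind beta-catenin in the Wnt pathway. They were compared with wild-type mice, for which the labels name no Cre, so an effect of Cre or of strain alleles on the mixed 129SvEv/C57BL/6/DBA/2 background and loss of the co-activators cannot be told apart. All mice were 12 weeks old, and the colon was healthy. Each group had 3 arrays, each from a pool: knockouts 1, 2 and 3 held 3, 2 and 2 mice, and wild types 4, 5 and 6 held 3 mice each. The epithelium came off in EDTA and was not sorted, and in such bulk samples fewer cells of a type and less RNA per cell cannot be told apart.

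All 10 epithelial markers checked, among them Epcam, Cdh1, Vil1 and Cdx2, read above the median probe set, and their list level differed little between arrays (-0.04 to 0.04 in the knockouts, -0.04 to 0.05 in wild type; a list level is the median over its genes of log2 expression minus the gene's average over the 6 arrays). Wild type 6 stood apart. The level of 7 B and plasma cell markers was 2.94 in that array, against -1.05 to -0.57 in the knockouts and -0.98 and -0.01 in wild types 5 and 4, and the level of 6 fibroblast markers was 0.93 there, against -0.52 to -0.02 in the other 5 arrays. Levels of tuft cell markers (-0.40 to -0.14 in the 3 knockouts, 0.09 to 0.65 in the 3 wild types) and of T cell and intraepithelial lymphocyte markers (-0.52 to 0.04 in the 3 knockouts, 0.07 to 0.72 in the 3 wild types) did not overlap between genotypes. Nor did those of 3 crypt base stem cell markers (-0.28 to -0.01 in the knockouts, 0.04 to 0.48 in wild type), of which 2 were lower in the knockouts. Fibroblast levels (-0.52 to -0.13 in the knockouts, -0.05 to 0.93 in wild type) did not overlap either. Many of these markers were dim. Above the median probe set were 2 of 6 tuft cell, 4 of 8 T cell and lymphocyte, 2 of 3 stem cell and 3 of 6 fibroblast markers. The 4 endothelial markers, of which 0 read above the median probe set, were barely apart (-0.13 to -0.08 in the knockouts, -0.07 to 0.24 in wild type). How often other lists of such size separate was not tested. The part of these cells in the values below was not tested. Values given without wild type 6 leave out a whole array and do not test the part of any cell type. The targeted genes did not separate the groups: the 5 probe sets of Bcl9 and Bcl9l differed by -0.20 to 0.22, and the sources used here do not say whether any lies in a deleted part.

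**Figure D1:**
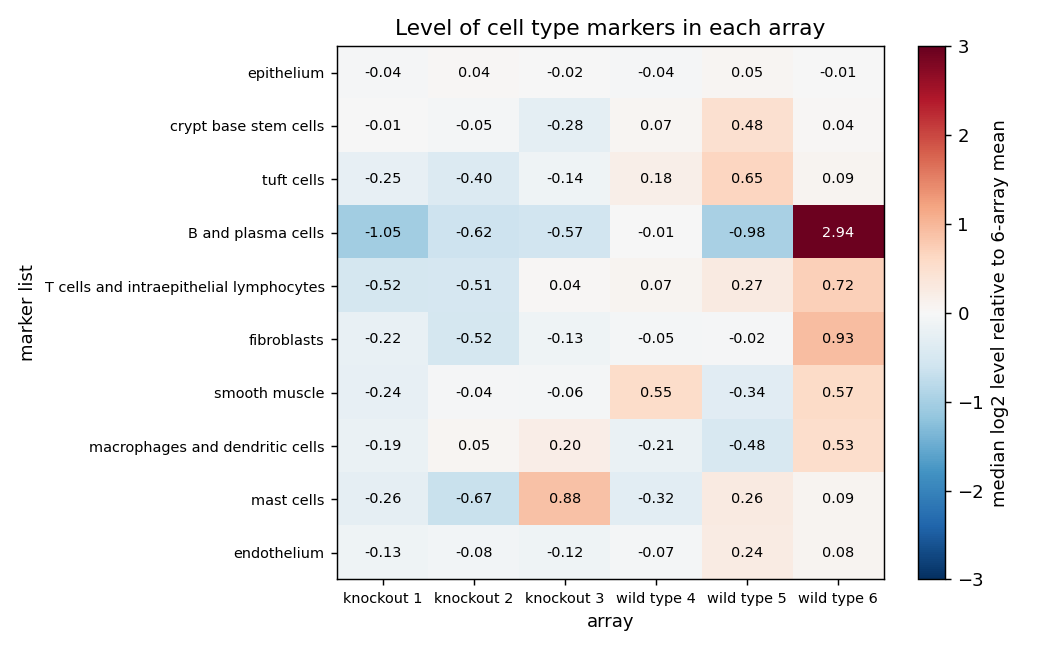
Level of 10 cell type marker lists (rows) in the 3 knockout and 3 wild-type arrays (columns), as the median log2 level after subtracting each gene's average over the 6 arrays. The level of B and plasma cell markers is 2.94 in wild type 6 and at most -0.01 in the other 5 arrays, while the epithelial level stays between -0.04 and 0.05.

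No member probe set passed the test. Values are log2 expression and differences are knockout minus wild type, tested with limma and adjusted by Benjamini-Hochberg over all 45037 probe sets that are not controls. Of the 22 member probe sets 0 passed at an adjusted p of 0.05 (adjusted p = 0.991 to 0.999), as did 0 of all probe sets, a share of 0.00%. Differences ran from -0.48 for Ereg to 0.44 for an Egfr probe set. Their median was -0.0090, against 0.0018 over all probe sets, with 11 above and 11 below 0.

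At an unadjusted p under 0.05 there were 2 members, 1 probe set of Egfr (higher, as 2.29% of all probe sets were) and 1 of Hbegf (lower, as 1.85% were), which is 9.09% of the members where 4.15% of all probe sets had such a p. Knockout and wild-type arrays did not overlap for 4 of the 22, 3 of Egfr and 1 of Hbegf, or 18.2% against 9.69% of all probe sets. By direction, 2 were higher and 2 lower, where 4.93% and 4.76% of all probe sets were. With so few members and with probe sets of 1 gene that share their transcript, these shares are a description and set neither gene apart. The typical pooled SD between pools was 0.21 for the members and 0.20 over all probe sets.

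**Figure D2:**
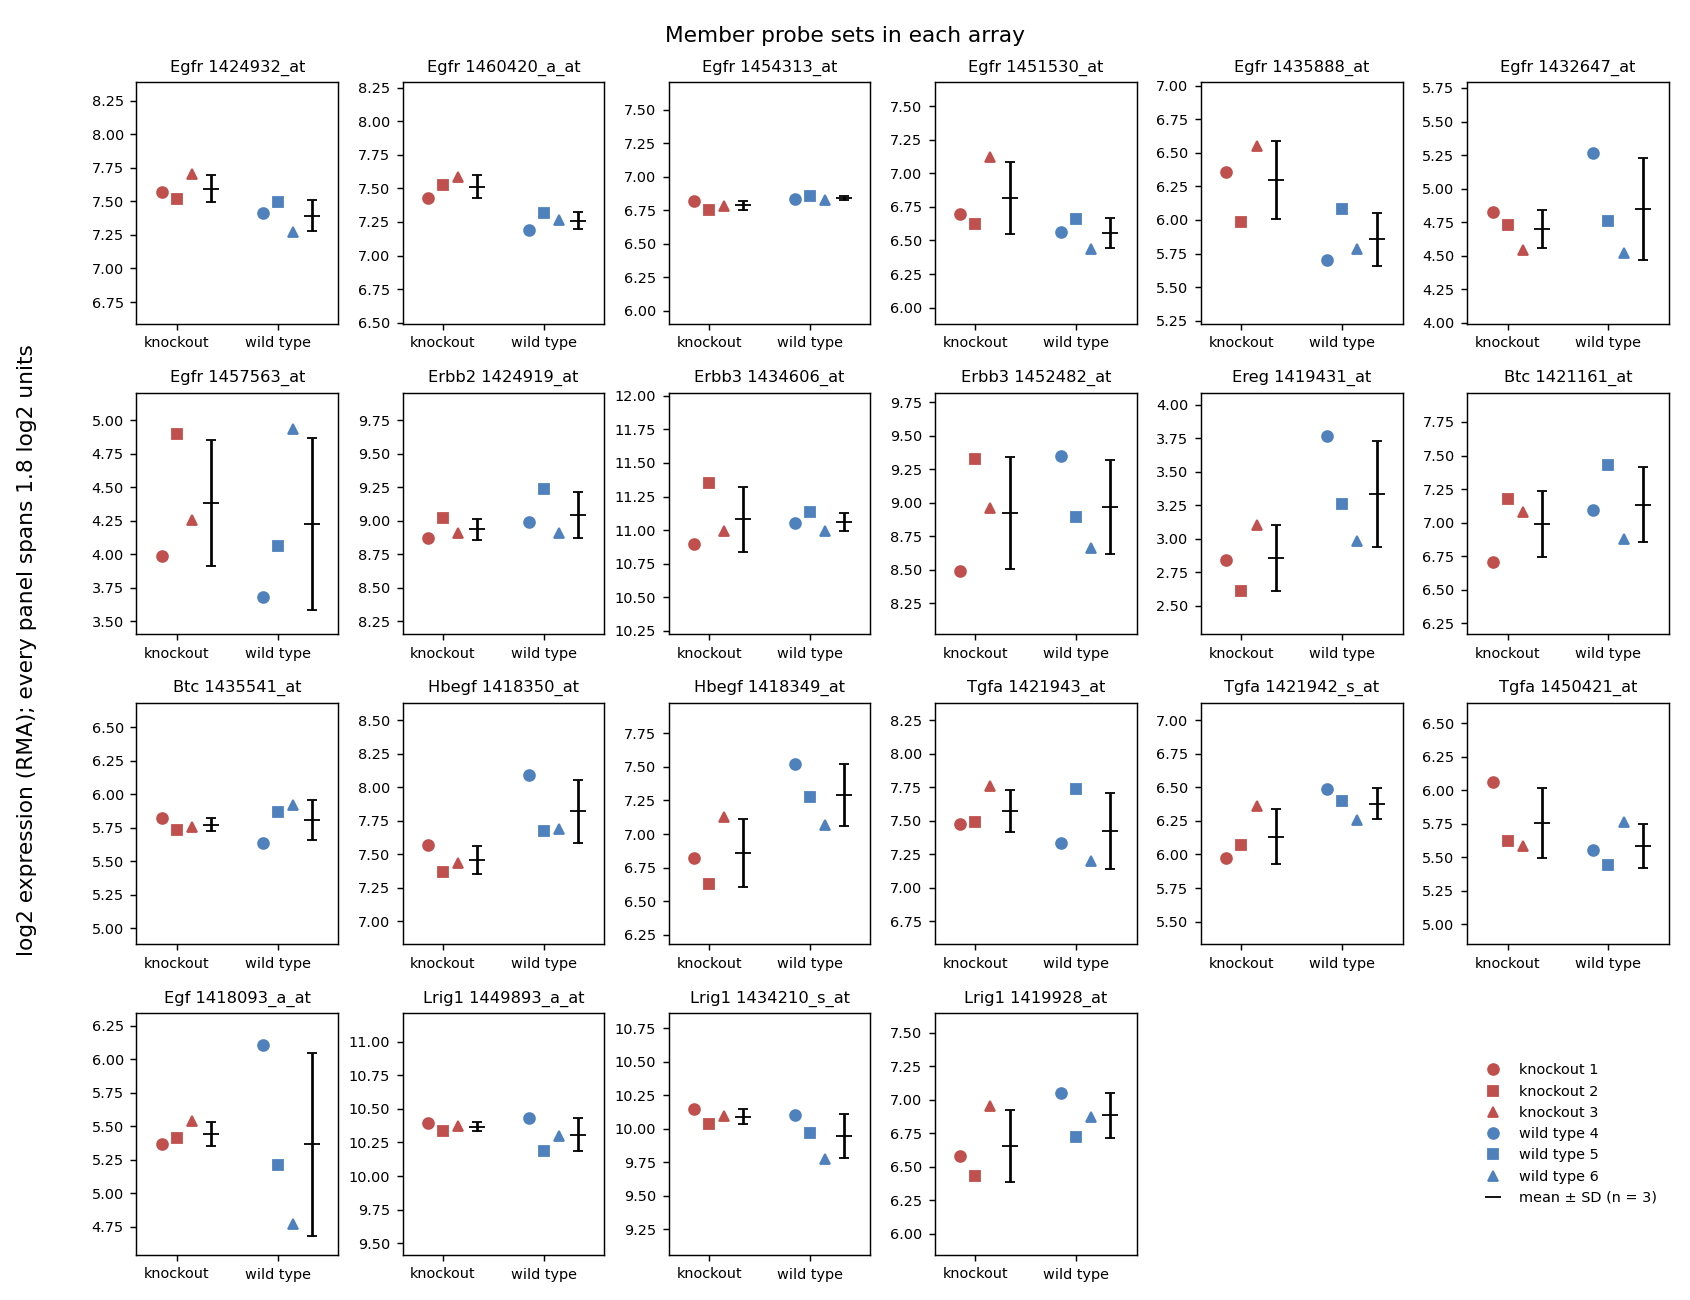
Log2 expression (y axis, 1.8 units in every panel) of the 22 member probe sets in the 3 knockout arrays (left, red) and 3 wild-type arrays (right, blue), with the mean and SD in black. Knockout points lie wholly above wild-type points in Egfr 1424932_at and 1460420_a_at, and wholly below in Hbegf 1418350_at and, by under 0.1, in Egfr 1454313_at.

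Egfr encodes the receptor of EGF and its closest relatives, and is read by 7 probe sets that come from 5 design sequences. Of these, 5 were above and 2 below 0. Probe set 1435888_at read 6.36, 5.98 and 6.55 in knockouts 1, 2 and 3, against 5.70, 6.08 and 5.78 in wild types 4, 5 and 6. Knockout 2 lay below wild type 5, so the groups overlap. The difference was 0.44 (SE 0.18), a 1.36-fold higher reading with a 95% interval of 1.00 to 1.84 (limma unadjusted p = 0.0496, adjusted p = 0.991).

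Probe set 1460420_a_at, from another design sequence, read 7.43, 7.53 and 7.59 in the knockouts, against 7.19, 7.32 and 7.27 in wild type. Every knockout array was above every wild-type array. The difference was 0.25 (SE 0.11, limma unadjusted p = 0.0547), or 1.19-fold with an interval of 1.00 to 1.43. Probe set 1424932_at showed the same order at close values, with 7.57, 7.52 and 7.71 in the knockouts against 7.41, 7.50 and 7.27 in wild type, a difference of 0.20 (SE 0.12). Its companion from the same design sequence, 1451530_at, differed by 0.26 (SE 0.16), with knockout 3 highest at 7.12 and the other knockouts at 6.70 and 6.62, against 6.44 to 6.66 in wild type. Without knockout 3 that difference was 0.11.

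Of the remaining 3 Egfr probe sets, 2 were below 0 and 1 above. Probe set 1454313_at lay at 6.75 to 6.82 in the knockouts, against 6.83 to 6.86 in wild type, a difference of only -0.05 (SE 0.10). The groups did not overlap there although they lay close together. Its companion from the same design sequence, 1432647_at, was dimmer and differed by -0.15 (SE 0.21). Probe set 1457563_at, with 3.98, 4.90 and 4.26 in the knockouts and 3.68, 4.06 and 4.93 in wild type, varied more between pools of 1 genotype than between genotypes (0.16, SE 0.37). The last 2 read below the median of all probe sets, and no detection call was used, so whether they exceed background is not known.

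Erbb2 and Erbb3 differed between genotypes by less than the pooled SD between pools. ERBB2 has no known ligand of its own and serves as a partner for the other receptors. Its probe set read 8.88, 9.02 and 8.91 in the knockouts, against 8.99, 9.24 and 8.91 in wild type, and the groups overlap. The difference was -0.11 (SE 0.13), and its 95% interval ran from 0.75- to 1.15-fold. Without wild type 5, the highest array, it was -0.013. ERBB3 binds neuregulins, has weak kinase activity and signals mainly by recruiting phosphatidylinositol 3-kinase when paired with ERBB2.

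The brighter Erbb3 probe set, 1434606_at, read 10.89, 11.35 and 10.99 in the knockouts and 11.06, 11.13 and 11.00 in wild type. Knockout 2 was the highest array and knockout 1 the lowest, so the wild-type values lay inside the knockout range. The difference was 0.02 (SE 0.15), with a 95% interval of 0.79- to 1.30-fold. The other probe set, 1452482_at, differed by -0.04 (SE 0.26), again with knockout 1 lowest at 8.49 and knockout 2 near the top at 9.32, against 8.66 to 9.35 in wild type.

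Among the ligands, 6 of 9 probe sets were below 0 and 3 above, with a median difference of -0.15. Over all 45037 probe sets 22336 were below 0. The 9 read 5 genes, and probe sets of 1 gene share their transcript, so the count is only a description. Hbegf encodes heparin-binding EGF-like growth factor, a ligand of EGFR and ERBB4 that is shed from the cell surface. Both of its probe sets, which come from 1 design sequence, read lower in the knockouts. Probe set 1418350_at read 7.57, 7.37 and 7.44 in the knockouts, against 8.09, 7.68 and 7.69 in wild type. Every knockout array was below every wild-type array. The difference was -0.36 (SE 0.15), a 0.78-fold reading with an interval of 0.61 to 1.00 (limma unadjusted p = 0.0498, adjusted p = 0.991).

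The other Hbegf probe set, 1418349_at, read 6.82, 6.63 and 7.13 in the knockouts and 7.53, 7.28 and 7.07 in wild type. Knockout 3 lay just above wild type 6, and the difference was -0.43 (SE 0.18, limma unadjusted p = 0.0515). Wild type 4 was the highest array in both probe sets. Leaving it out gave -0.23 for 1418350_at and -0.31 for 1418349_at, and leaving out wild type 6, the array rich in B cell markers, gave -0.42 and -0.54.

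Ereg encodes epiregulin, a ligand of EGFR and ERBB4, and had the lowest difference of all members. It read 2.84, 2.61 and 3.10 in the knockouts, against 3.76, 3.26 and 2.98 in wild type. The groups overlap, since knockout 3 was above wild type 6. The difference was -0.48 (SE 0.23, limma unadjusted p = 0.0758), or -0.27 without wild type 4 and -0.66 without wild type 6. These readings lie near percentile 14.2 of all probe sets, so whether Ereg was detected at all is not shown.

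By the RefSeq gene table Ereg lies on chromosome 5 in the order Epgn, Ereg, Areg, Btc, all ligand genes of this family. Its neighbours with a probe set read as follows. Epgn, for epigen, differed by -0.22 (SE 0.30) and was also dim, with means of 3.16 in the knockouts and 3.38 in wild type. Btc, for betacellulin, read 6.71, 7.18 and 7.08 in the knockouts and 7.10, 7.43 and 6.88 in wild type in its brighter probe set, 1421161_at, a difference of -0.15 (SE 0.19). Its other probe set, 1435541_at, differed by -0.04 (SE 0.12), with 5.73 to 5.83 in the knockouts inside the 5.64 to 5.92 of wild type.

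Tgfa encodes transforming growth factor alpha, an EGFR ligand made by many epithelia. Its 3 probe sets come from 1 design sequence and disagreed in sign. Probe set 1421943_at read 7.48, 7.49 and 7.76 in the knockouts, against 7.34, 7.74 and 7.20 in wild type, and differed by 0.15 (SE 0.17). Probe set 1450421_at differed by 0.17 (SE 0.17) and 1421942_s_at by -0.25 (SE 0.14). Single arrays moved these values, from 0.04 (without wild type 6) to 0.31 (without wild type 5) for 1421943_at, from 0.020 (without knockout 1) to 0.26 for 1450421_at and from -0.36 (without knockout 3) to -0.16 for 1421942_s_at. In the last, knockouts 1 and 2 (5.97 and 6.07) were below every wild-type array (6.26 to 6.49), whereas knockout 3 (6.36) was within their range.

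Egf, the ligand for which the family is named, varied most between wild-type pools. It read 5.37, 5.41 and 5.54 in the knockouts, against 6.11, 5.21 and 4.77 in wild type. The 3 knockouts lay within a span that the wild types exceeded on both sides, with an SD of 0.09 in the knockouts and 0.68 in wild type (n = 3 each). The difference was 0.08 (SE 0.32), its 95% interval ran from 0.62- to 1.79-fold, and it was -0.22 without wild type 6 and 0.45 without wild type 4.

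Lrig1 was read by 3 probe sets, which differed by -0.23 to 0.14 and disagreed in sign. Probe set 1449893_a_at read 10.40, 10.34 and 10.37 in the knockouts, against 10.43, 10.19 and 10.29 in wild type. The knockout values lay within the wild-type range. The difference was 0.06 (SE 0.11), with a 95% interval of 0.86- to 1.26-fold, and it was 0.0042 without wild type 5 and 0.13 without wild type 4. Probe set 1434210_s_at differed by 0.14 (SE 0.13), with wild type 6 lowest at 9.78, and by 0.06 without that array. The third, 1419928_at, was dimmer and went the other way, with 6.58, 6.43 and 6.95 in the knockouts against 7.05, 6.72 and 6.87 in wild type (-0.23, SE 0.17), and it ran from -0.37 without knockout 3 to -0.11 without knockout 2.

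**Figure D3:**
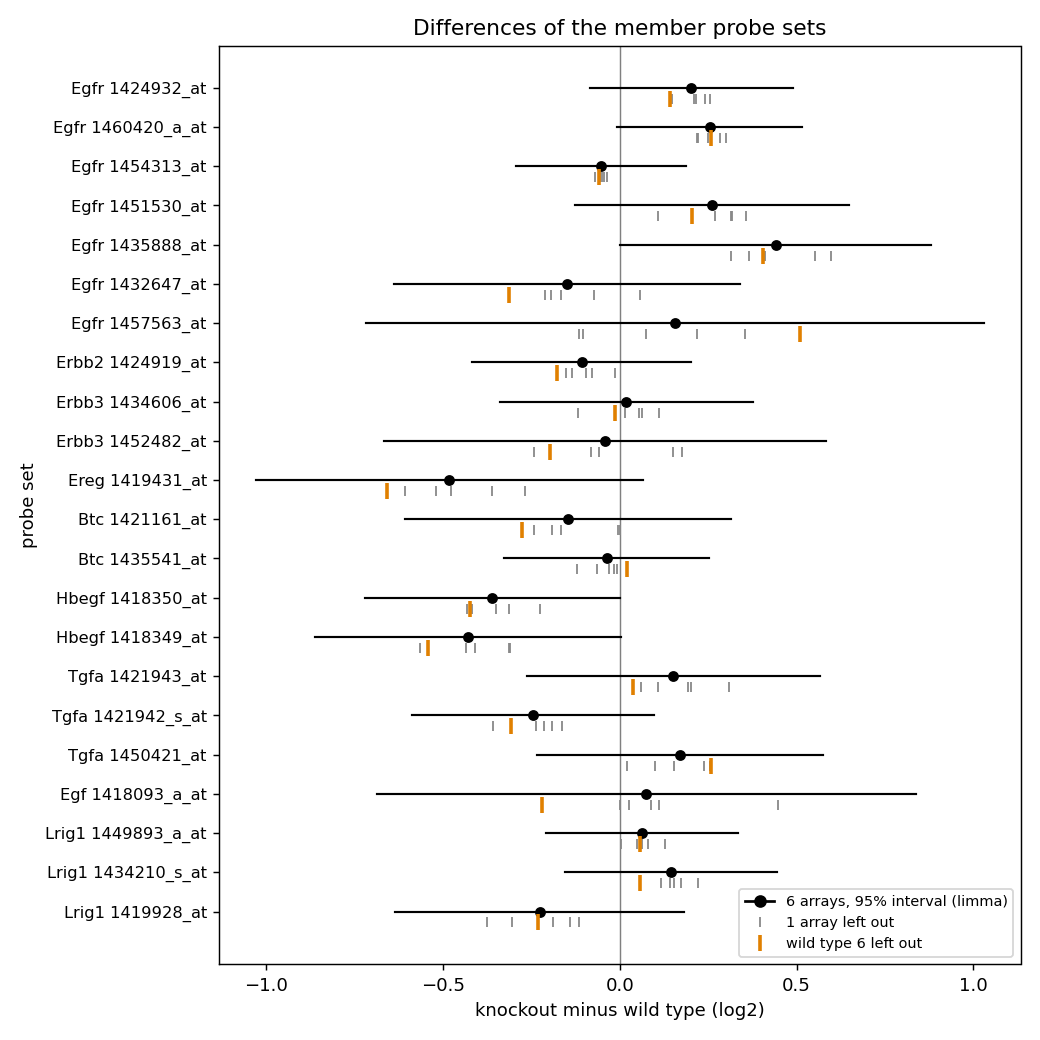
Knockout minus wild type (log2, x axis) for each member probe set (rows), with limma's 95% interval (line) and the same difference with each array left out in turn (grey ticks, orange without wild type 6). Differences run from -0.48 to 0.44, and 7 of the 22 change sign when some 1 array is left out.

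Other genes of the pathway gave 152 probe sets for 57 of 62 listed genes, and 0 passed in either direction (limma, adjusted p at least 0.991). At an unadjusted p under 0.05 there were 3 higher and 2 lower, or 3.29% against 4.15% of all probe sets, and groups did not overlap for 13, or 8.55% against 9.69%. The median difference was 0.04. The pathway as listed therefore had no larger share of such probe sets than the array as a whole.

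Among other ErbB receptors and ligands, 1 of 10 probe sets had an unadjusted p under 0.05, against 4.15% of all probe sets. It reads Nrg4, a neuregulin that binds ERBB4, with 5.56, 5.59 and 5.53 in the knockouts against 4.99, 5.14 and 5.29 in wild type. Every knockout array was above every wild-type array, as in 4.93% of all probe sets, with a difference of 0.42 (SE 0.12, limma unadjusted p = 0.0112, adjusted p = 0.991). Its readings lie near percentile 48.3 of all probe sets, and no detection call was used. The other Nrg4 probe set differed by 0.04. Erbb4 itself, the remaining ErbB receptor, was dim, with means of 2.58 in the knockouts and 2.65 in wild type.

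Genes of receptor restraint and turnover gave 3 of 32 probe sets with such a p, or 9.38% against 4.15% of all probe sets. On so few probe sets this share is only a description. Errfi1 encodes MIG6, an inhibitor of the EGFR kinase that the receptor's own signal induces. It read 9.94, 9.94 and 9.88 in the knockouts, against 10.17, 10.37 and 10.19 in wild type. All knockouts were below all wild types, as in 4.76% of all probe sets. The difference was -0.32 (SE 0.11, limma unadjusted p = 0.0247, adjusted p = 0.991), and the dimmer Errfi1 probe set differed by -0.26 (SE 0.24). Lrig3, a relative of Lrig1, differed by 0.34 (SE 0.14), and its other probe sets gave 0.28 and 0.06. Eps15, which takes part in receptor endocytosis, differed by 0.35 (SE 0.13), but its other probe sets ran from -0.31 to 0.33.

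The lists of ligand release, of adaptors and kinase cascades and of ERK-response genes gave 0 of 17, 1 of 58 and 0 of 35 probe sets with an unadjusted p under 0.05. The 1 was a probe set of the kinase gene Akt1 (-0.37, SE 0.15), whose other probe sets ran from -0.13 to 0.03. Over all probe sets the share with such a p was 4.15%. The proteases ADAM10 and ADAM17 release most ligands of the family. Adam10 probe sets differed by 0.05 to 0.32 and Adam17 probe sets by -0.03 to 0.08. ERK-response genes are transcribed when the kinase cascade below the receptors is active, and their list held 35 probe sets of 16 genes. Of these, 26 lay above 0 with a median of 0.11, where 22701 of all 45037 probe sets did. Without wild type 6 the count was 22 with a median of 0.06, where 21519 of all 45037 lay above 0. Spred1, Spred2 and Spry4 gave 8, 5 and 4 of the 35, and 12 of the 35 read below the median probe set. Probe sets of 1 gene share their transcript, so these counts are only a description. Dusp6, an ERK phosphatase, differed by 0.07 (SE 0.13), Spry2 by 0.15 (SE 0.16) in its brighter probe set, and the early genes Egr1 by -0.38 (SE 0.28) and Fos by -0.19 (SE 0.19). Egr1 was the lowest of the 35, and 9 of the 35 lay below 0. The highest was an Etv4 probe set at 0.53 (SE 0.38), which ran from 0.08 to 0.85 with 1 array left out. Leaving out 1 array gave -0.0011 to 0.16 for Dusp6, 0.06 to 0.31 for Spry2, -0.65 to -0.13 for Egr1 and -0.34 to -0.0048 for Fos.

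**Figure D4:**
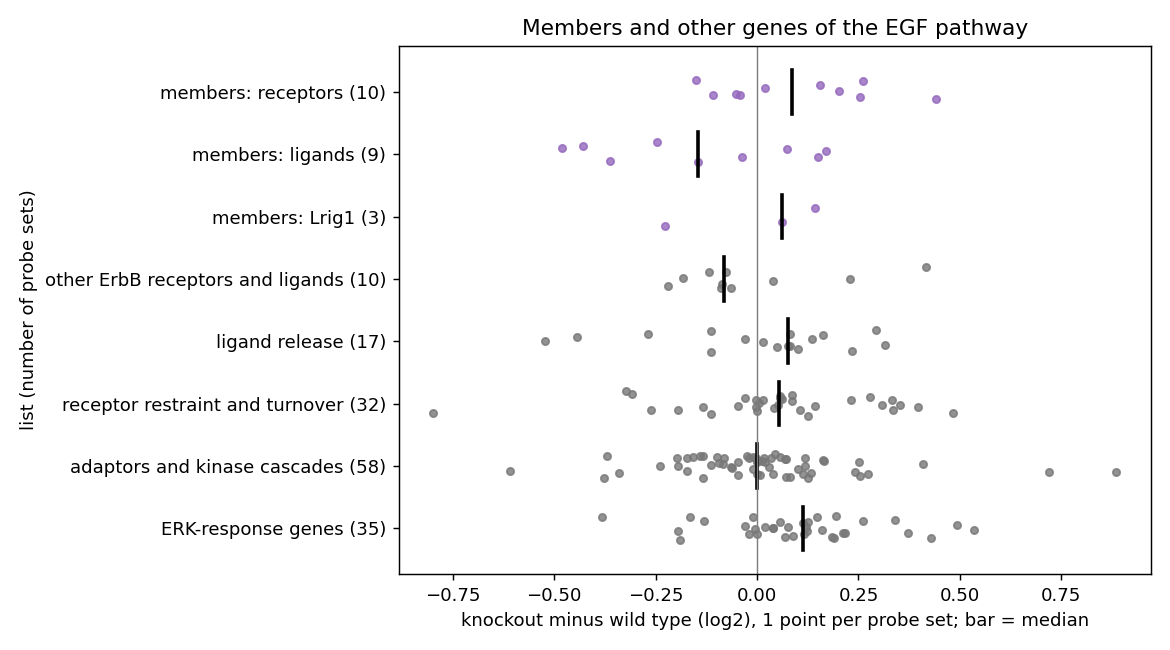
Knockout minus wild type (log2, x axis) for the member probe sets (purple) and for 5 lists of other pathway genes (grey), 1 point per probe set, with the median as a bar. Medians lie between -0.15 (member ligands) and 0.11 (ERK-response genes), and points of every list fall on both sides of 0.

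BCL9 and BCL9L act through beta-catenin at DNA bound by TCF factors, so the promoters of the members were searched on both strands for the TCF letters CTTTGNN, with A or T at each N. RefSeq promoter windows of 300 bases around the gene start (GRCm38.p6) were at hand for 7 of the 10 genes, 8 windows in all. None of the 8 held a match, against 16.9% of the 32851 windows in the table. This says only that these letters are not in these windows.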

How the data were processed

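Expression was measured on Affymetrix arrays, 1 per pool of mice. Per the labels' protocols, tissue stood 1.5 to 2 hours in EDTA (3 mM) with DTT (0.05 mM), and amplification with a NuGEN WT-Ovation pico kit started from 30 ng of pooled total RNA, so little that it can read low transcripts unevenly. The deposited log2 values were made by the authors with RMA, per the submitters' processing notes; the log2 scale was read from their range (1.78 to 14.4). Quantile normalization within RMA hides any change shared by all genes. Array medians were 5.44 to 5.58. Arrays have no read depth, and their number, 3 per group, limits the precision: a typical 95% interval reached 0.38 either side. Scanner files, detection calls and scan dates were not used here, so batches were not tested.

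Samples were grouped by their labelled genotype, and since each array is a pool, p-values reflect the spread among pools. The 64 control probe sets were left out, and limma 3.58.1 in R 4.3.3 (lmFit, eBayes, two-sided, no covariate) was fitted to the other 45037 with no filter on low values. In the annotation 34958 probe sets had 1 symbol, 932 several and 9211 none. The text names every member probe set, and of the pathway lists up to 5 per direction by unadjusted p under 0.05. The pathway genes Epgn, Erbb4, Adam10, Adam17, Dusp6, Spry2, Etv4, Egr1 and Fos are outside that rule and were picked with their values in view. Members, lists and tests were chosen with earlier results of these data known. Alternatives were cyclic loess, brighter probe sets only, robust estimation with an intensity trend, array weights, 1 probe set or the mean of probe sets per gene, and leaving out each array.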

Additional observations from a re-analysis of the deposited data

How the results depend on the processing

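The count of member and of pathway probe sets passing stayed at 0 with cyclic loess, brighter probe sets, the trend, array weights, 1 probe set per gene and each array left out. Under the same alternatives limma called 0 over all probe sets, except without wild type 6, where it called 3 (Lrg1, Rgcc and Pla2g2a, no member; named after their values were seen), so the range over left-out arrays is 0 to 3. With all arrays 1867 probe sets had an unadjusted p under 0.05. Without wild type 6 the members with such a p were Ereg and both Hbegf probe sets, all lower (adjusted p = 0.837 to 0.861; 5.76% of all probe sets had such a p there), in place of 1 of Egfr and 1 of Hbegf. Array weights gave 5 such members (2 of Egfr higher, Ereg and both of Hbegf lower), cyclic loess 2 (both of Hbegf), and the trend, the brighter probe sets and leaving out knockout 1 gave 0. Leaving out another array gave 1 or 2, and without wild type 4 the 1 was Egf (0.45). The sign held for 21 of 22 member probe sets with cyclic loess, 19 with array weights, all 22 with the trend and all 18 kept among brighter probe sets. Small differences turned: Erbb3 1434606_at was -0.011 with cyclic loess and -0.0066 with array weights, where Btc 1435541_at was 0.00098 and Egf -0.10. With the mean of all its probe sets Erbb3 was -0.012 and Lrig1 -0.0064. Leaving out 1 array gave -0.31 to 0.057 for Egfr 1432647_at, -0.12 to 0.51 for Egfr 1457563_at, -0.12 to 0.11 and -0.24 to 0.17 for the Erbb3 probe sets, -0.28 to 0.00095 and -0.12 to 0.019 for those of Btc, and -0.22 to 0.45 for Egf; the other 15 kept their sign. The cause was not tested. No paired analysis was possible because the groups share no replicate number. Dim readings, without detection calls, limit what Ereg, Egf, Nrg4 and the dimmer Egfr probe sets show.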
